A study of Mus musculus with 32 samples.

Results

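CXC chemokines are small secreted or membrane-tethered proteins that attract leukocytes and guide neural and vascular cells, and their receptors signal through G proteins. Of the 42524 genes in the deposited count table, 8 were taken by name: the ligands Cxcl9, Cxcl10, Cxcl12, Cxcl13, Cxcl14 and Cxcl16 and the receptors Cxcr4 and Cxcr6. All 8 names matched an Ensembl identifier of the table through GENCODE mouse annotation. The choice did not use any measured value of the genes, although earlier results of these data were known when it was made.

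Messenger RNA of mouse spinal cord was sequenced in 8 groups of 4 mice. The groups crossed genotype, treatment and a time labelled 90 days or 155 days, which the study treats as 2 ages and its design text words as lengths of treatment. The study's text puts the earlier age a few days later than this label, and the label is used below. G93A mice carried the human SOD1 G93A transgene on a C57BL/6J background, from a single transgenic line that models amyotrophic lateral sclerosis (ALS), and wild-type (WT) mice were littermates without it. Untreated mice received no drug, and treated mice received OKN-007, a nitrone compound, in their drinking water at a dose that the labels do not give. The 8 groups were therefore WT untreated, WT OKN-007, G93A untreated and G93A OKN-007, each at 90 and at 155 days. Mice are named below by the sample number in their label: 1 to 4 in WT untreated, 5 to 8 in WT OKN-007, 9 to 12 in G93A untreated and 13 to 16 in G93A OKN-007, and the same numbers at the other age are other mice.

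Cxcl9 and Cxcl10 are inflammatory ligands induced by interferons, and both act on Cxcr3. Cxcl12, Cxcl13 and Cxcl14 are made constitutively in several tissues. Cxcl12 acts on Cxcr4 and is scavenged by Ackr3, Cxcl13 acts on Cxcr5 and draws B cells, and Cxcl16 is a transmembrane ligand of Cxcr6 that the proteases Adam10 and Adam17 release from the cell surface. In the spinal cord, glia, vessels and infiltrating leukocytes are all known sources of these molecules.

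Because interferon and NF-kB signalling are the textbook inducers of this family, the promoter windows of the members were searched for 3 motifs. These were the core of the interferon-stimulated response element (ISRE, GAAA repeated after any 2 bases), the interferon-gamma activated site (GAS, TTCNNNGAA) and the NF-kB consensus, on both strands, in the 300 bases from 250 before to 50 after the gene start in RefSeq (GRCm38.p6). Windows were found for 7 of the 8 members, all but Cxcl16. Those of 3 members are shown over the 250 bases upstream of the start, 5′ to 3′ on the gene's own strand, with matches in capitals: Cxcl10, which holds an ISRE core and 2 NF-kB matches, Cxcl14, which holds a GAS match and an ISRE core, and Cxcl9, the neighbour of Cxcl10 in function, which holds none of the 3.
Cxcl10, minus strand, chr5:92348890-92349139: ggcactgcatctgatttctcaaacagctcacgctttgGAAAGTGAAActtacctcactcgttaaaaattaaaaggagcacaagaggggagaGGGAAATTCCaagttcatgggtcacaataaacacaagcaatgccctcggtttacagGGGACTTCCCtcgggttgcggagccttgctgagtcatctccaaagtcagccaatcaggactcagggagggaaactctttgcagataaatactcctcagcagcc
Cxcl14, minus strand, chr13:56296552-56296801: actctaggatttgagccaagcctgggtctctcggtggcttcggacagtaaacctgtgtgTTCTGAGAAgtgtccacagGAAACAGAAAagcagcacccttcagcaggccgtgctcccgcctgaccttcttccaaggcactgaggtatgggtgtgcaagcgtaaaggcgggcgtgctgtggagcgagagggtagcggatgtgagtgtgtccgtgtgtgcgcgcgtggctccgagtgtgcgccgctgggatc
Cxcl9, minus strand, chr5:92328080-92328329: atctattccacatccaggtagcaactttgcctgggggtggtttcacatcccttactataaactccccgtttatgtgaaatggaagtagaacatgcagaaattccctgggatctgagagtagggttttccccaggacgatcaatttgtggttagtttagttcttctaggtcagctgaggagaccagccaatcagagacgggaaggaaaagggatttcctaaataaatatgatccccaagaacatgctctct
Counted from the gene start, the ISRE core of Cxcl10 ran from -213 to -204 and its NF-kB matches from -159 to -150 and from -103 to -94. The GAS match of Cxcl14 ran from -191 to -183 and its ISRE core from -172 to -163. The windows of Cxcl9, Cxcl12, Cxcl13, Cxcr4 and Cxcr6 held no match. Among all 32851 promoter windows of the same length, 3.44% held the ISRE core, 8.30% GAS and 4.51% the NF-kB consensus. A match describes the letters of the window and says nothing of what binds there.

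The libraries held 19701722 to 30138257 counts on genes, and 3 counts in the smallest of them are 0.152 per 1000000 counts of its total. Levels are given as CPM, counts per 1000000 of a library size scaled by normalization factors, so that floor is approximate on their scale. At 155 days the summed CPM of 10 caudal Hox genes was 299 to 392 in WT mice and 124 to 266 in G93A mice. The 5 Schwann cell markers summed to 1683 CPM in WT untreated mouse 3 and to 396 CPM in G93A untreated mouse 10 at 90 days, against 82.9 to 148 CPM in the other 30 mice. The 7 liver genes summed to 190 CPM in G93A untreated mouse 12 and to 133 CPM in G93A OKN-007 mouse 15 at 155 days, against 0.612 to 76.8 CPM in all others.

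At 155 days, 5 of the 6 members that passed the filter on low counts were higher in untreated G93A than in untreated WT mice by edgeR's quasi-likelihood test, at a Benjamini-Hochberg adjusted p under 0.05 over all genes tested. They were Cxcl10 (34.6-fold), Cxcl16 (13.7-fold), Cxcl9 (5.52-fold), Cxcr4 (4.22-fold) and Cxcl14 (1.45-fold). The sixth, Cxcl12, did not pass, with a log2 fold change of 0.043 ± 0.18 (SE) and an adjusted p of 0.870. Of all 18675 genes tested in this comparison, 21.3% were called higher. The same 5 members were higher in OKN-007-treated G93A than in treated WT mice, where 23.3% of all genes were called higher. The median log2 fold change of the 6 tested members was 2.27 in untreated and 3.10 in treated mice, against 0.00015 and 0.018 over all genes. With treatments averaged, 8 mice against 8, the count was again 5 of 6, where 28.8% of all genes were called higher. Cxcl9 and Cxcl10 passed the filter only through their G93A mice, since WT mice of this age held at most 7 and 8 counts. The counts of 5 of 6 and the median fold changes are therefore partly fixed by the filter. Cxcl13 and Cxcr6 had too few counts to be tested in this fit and are described by their counts. In whole tissue, a change in the number of cells of a type and a change in RNA per cell cannot be told apart.

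**Figure D1:**
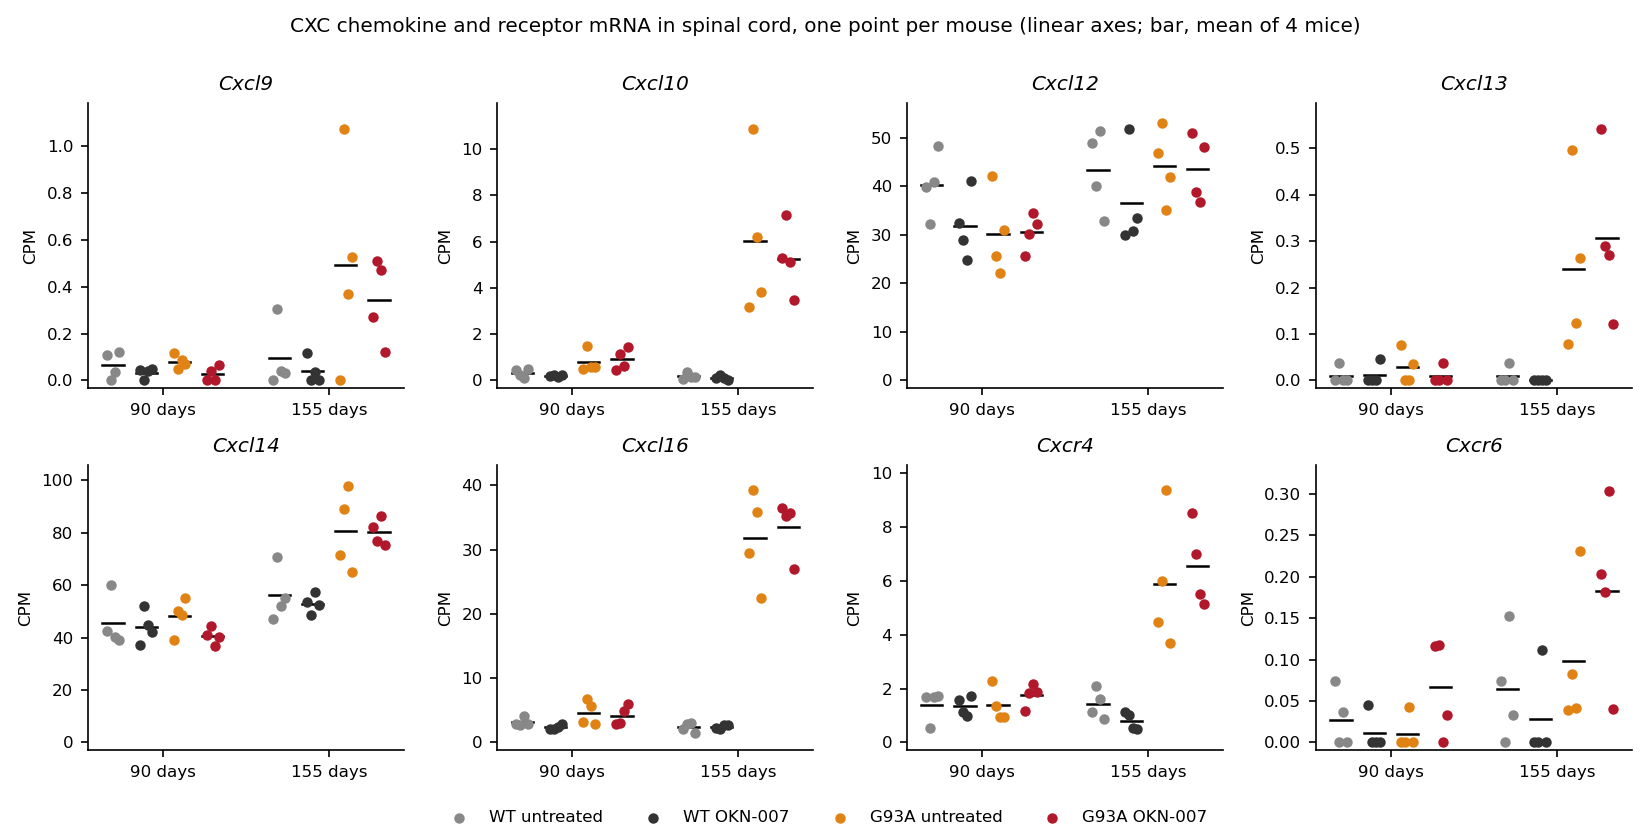
Levels of the 8 members in CPM (vertical axes, linear and scaled per gene) in each of the 32 mice, by age (horizontal axis) and group (colour), with a bar at the mean of 4 mice. Cxcl10, Cxcl16 and Cxcr4 are high in every G93A mouse at 155 days, Cxcl12 overlaps in all groups, and the scale of Cxcl13 and Cxcr6 ends below 1 CPM.

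Cxcl10, which recruits cells that carry Cxcr3, had the largest fold change at 155 days among the 6 members that passed the filter on low counts. Untreated WT mice 1 to 4 held 0.0745, 0.347, 0.153 and 0.131 CPM, and untreated G93A mice 9 to 12 held 3.17, 10.9, 6.20 and 3.80 CPM. The groups did not overlap, and G93A mouse 10 was the highest of them. In raw reads this was 2 to 8 counts in each WT mouse against 81 to 263 counts in each G93A mouse. The log2 fold change was 5.11 ± 0.50 (SE, adjusted p = 1.91e-07). Treated WT mice 5 to 8 held 0.116, 0.252, 0.112 and 0 CPM, and treated G93A mice 13 to 16 held 5.29, 7.16, 5.13 and 3.46 CPM. These groups did not overlap either, and the log2 fold change was 5.44 ± 0.53 (adjusted p = 1.39e-07).

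Cxcl9 was an order lower than Cxcl10 in CPM and far more variable. Untreated WT mice 1 to 4 held 0, 7, 1 and 1 counts, and untreated G93A mice 9 to 12 held 0, 26, 9 and 16 counts, which are 0, 1.08, 0.369 and 0.529 CPM. Mouse 9 had no read of Cxcl9 although it held 81 counts of Cxcl10, so the untreated groups overlapped. The log2 fold change was 2.46 ± 0.90 (SE, adjusted p = 0.0369). Treated WT mice 5 to 8 held 3, 0, 1 and 0 counts and treated G93A mice 13 to 16 held 8, 14, 14 and 3 counts, without overlap in CPM (0.122 to 0.509 CPM in G93A against at most 0.116 CPM in WT). The fitted log2 fold change was 3.12 ± 1.08 (adjusted p = 0.0267). Divided by 3 counts in the smallest treated WT library, the mean level of Cxcl9 in treated G93A mice was 2.95. This ratio is no lower bound of the group difference, since WT mouse 5 held 3 counts itself. The calls of Cxcl9 did not hold throughout. In untreated mice the adjusted p rose to 0.0993 once the mean level of the caudal Hox genes entered as a covariate, and to 0.0998, 0.0984 and 0.0947 without WT mouse 1, 3 or 4 and to 0.170 and 0.0599 without G93A mouse 10 or 12. In treated mice it was 0.0623 with the Hox score, and 0.0745, 0.0571 and 0.0752 without WT mouse 6, 7 or 8 and 0.0690 and 0.0635 without G93A mouse 14 or 15. With treated and untreated mice averaged, 8 against 8, Cxcl9 was higher by 2.79 ± 0.70 (adjusted p = 0.00245) and was called in each of the 23 alternatives that gave a value.

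Cxcl16, the membrane-bound ligand of Cxcr6, was the member with the smallest error relative to its change. Untreated WT mice 1 to 4 held 2.12, 2.87, 3.02 and 1.44 CPM, and untreated G93A mice 9 to 12 held 29.5, 39.2, 35.8 and 22.5 CPM. The lowest G93A mouse was thus several times above the highest WT mouse. The log2 fold change was 3.77 ± 0.20 (SE, adjusted p = 8.91e-11). Under OKN-007, WT mice 5 to 8 held 2.21, 2.16, 2.69 and 2.79 CPM, and treated G93A mice 13 to 16 held 36.4, 35.2, 35.7 and 26.9 CPM. The groups did not overlap, mouse 16 stood below the other 3, and the log2 fold change was 3.80 ± 0.20 (adjusted p = 5.14e-11).

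Cxcl14, a constitutive chemokine, was the most abundant member per length of transcript and rose by a small amount. Untreated WT mice 1 to 4 held 46.9, 70.7, 52.1 and 55.1 CPM, and untreated G93A mice 9 to 12 held 71.5, 88.9, 97.8 and 65.0 CPM. The groups overlapped through WT mouse 2 and G93A mouse 12. The log2 fold change was 0.54 ± 0.12 (SE, adjusted p = 0.00159). Under OKN-007, WT mice 5 to 8 held 53.4, 48.8, 57.3 and 52.4 CPM, and treated G93A mice 13 to 16 held 82.3, 76.9, 86.2 and 75.4 CPM. Here the groups did not overlap, and the log2 fold change was 0.63 ± 0.12 (adjusted p = 0.000338).

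Cxcl12, the constitutive ligand of Cxcr4, did not separate the genotypes. Untreated WT mice held 32.8 to 51.4 CPM (43.3 ± 8.56, mean ± SD, n = 4) and untreated G93A mice 35.0 to 52.9 CPM (44.2 ± 7.59, n = 4). Treated WT mice 5 to 8 held 29.8, 51.7, 30.9 and 33.4 CPM, and treated G93A mice 36.7 to 50.8 CPM (43.6 ± 6.92, n = 4). The treated groups overlapped only through WT mouse 6, and the log2 fold change was 0.29 ± 0.18 (SE, adjusted p = 0.204). Without WT mouse 6 it was 0.51 ± 0.16 with an adjusted p of 0.0168, and with treatments averaged it moved from 0.17 ± 0.13 (adjusted p = 0.274) to 0.28 ± 0.11 (adjusted p = 0.0375), so 1 mouse decided these calls. With the mean level of the caudal Hox genes entered as a covariate, the log2 fold change was -0.36 in untreated and -0.10 in treated mice, and neither was called.

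Cxcl13, the B-cell attractant, was at the edge of detection. Untreated WT mice held 0, 0, 1 and 0 counts and treated WT mice 0 counts each, which allows up to 3 counts per library. Untreated G93A mice 9 to 12 held 2, 12, 3 and 8 counts, and treated G93A mice 13 to 16 held 16, 8, 8 and 3 counts. Every one of the 8 G93A mice held more counts than any WT mouse. Divided by 3 counts in the smallest WT library of the pair, the mean G93A level of Cxcl13 was 1.85 without treatment and 2.63 with it. These ratios are no lower bounds of the group difference. Untreated G93A mice 9 and 11 held 0.0782 and 0.123 CPM, under the floor of 0.130 CPM used for the untreated pair. With no filter on low counts it was called in both comparisons (adjusted p = 0.00148 and 3.26e-05 by edgeR's quasi-likelihood test over 40747 genes).

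Cxcr4, the receptor of Cxcl12, rose while its ligand did not pass the test. Untreated WT mice 1 to 4 held 1.12, 2.08, 1.61 and 0.853 CPM, and untreated G93A mice 9 to 12 held 4.46, 6.0, 9.36 and 3.70 CPM. The groups did not overlap, and the log2 fold change was 2.08 ± 0.32 (SE, adjusted p = 4.58e-05). Treated WT mice 5 to 8 held 1.13, 1.01, 0.523 and 0.495 CPM, and treated G93A mice 13 to 16 held 8.51, 6.97, 5.51 and 5.13 CPM. They did not overlap, and the log2 fold change was 3.09 ± 0.34 (adjusted p = 6.79e-07).

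Cxcr6, the receptor of Cxcl16, remained near the floor in all groups. Untreated WT mice at 155 days held 2, 0, 4 and 1 counts and untreated G93A mice 1, 2, 1 and 7 counts, with overlap. Treated WT mice held 0, 0, 3 and 0 counts and treated G93A mice 6, 5, 9 and 1 counts, also with overlap. With no filter, Cxcr6 did not pass the quasi-likelihood test (adjusted p = 0.773 untreated, 0.0673 treated). Its log2 fold change there was 0.61 ± 0.95 (SE, unadjusted p = 0.520) in untreated and 2.58 ± 1.01 (unadjusted p = 0.0125) in treated mice. With treatments averaged it was 1.60 ± 0.70 (unadjusted p = 0.0246, adjusted p = 0.0915). A rise of the receptor beside that of its ligand was thus not called at this depth.

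Of the members tested at 155 days, the CPM of the 2 genotypes did not overlap for 3 of 6 in untreated mice (Cxcl10, Cxcl16 and Cxcr4, all higher in G93A), where 17.4% of all genes were higher without overlap. In treated mice this held for 5 of 6 (the same 3 with Cxcl9 and Cxcl14), where the share of all genes was 22.6%. Cxcl9 and Cxcl10 are among the tested members only through their G93A mice, so these counts are partly fixed by the filter. Set per kilobase of exonic length, so that members can be compared with each other, the mean level in untreated WT mice at 155 days was 30.8 CPM per kb for Cxcl14, 5.30 for Cxcl12, 0.783 for Cxcr4, 0.782 for Cxcl16 and 0.0784 for Cxcl10. In untreated G93A mice it was 44.2 CPM per kb for Cxcl14, 10.5 for Cxcl16, 5.40 for Cxcl12, 3.25 for Cxcr4, 2.67 for Cxcl10, 0.209 for Cxcl13, 0.164 for Cxcl9 and 0.0511 for Cxcr6. Cxcl16 thus stood below Cxcl12 per kilobase in WT mice and above it in G93A mice of this age.

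**Figure D2:**
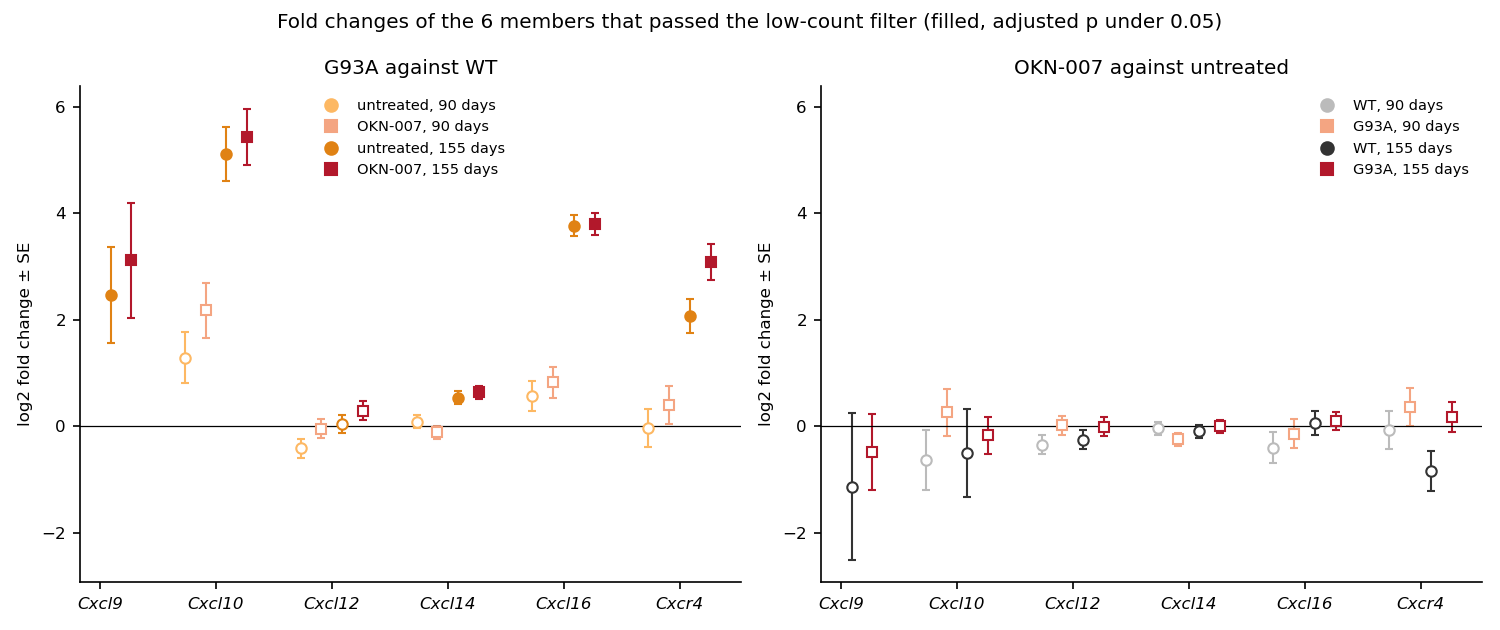
Log2 fold change with its standard error (vertical axis) of the members that passed the low-count filter (horizontal axis), for G93A against WT (left) and OKN-007 against untreated (right), filled where the adjusted p was under 0.05. At 155 days Cxcl9, Cxcl10, Cxcl14, Cxcl16 and Cxcr4 are called higher in G93A mice in both treatments, and 0 members are called in any comparison at 90 days or of OKN-007.

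At 90 days none of the 5 tested members was called between the genotypes by edgeR's quasi-likelihood test, where 0% of all genes were called in untreated mice and 0% in treated mice. At an unadjusted p under 0.05 there were 2 members in each comparison (Cxcl10 and Cxcl12 untreated, Cxcl10 and Cxcl16 treated), and DESeq2 called 0 in both. Of all 18899 genes, 1126 passed that limit in untreated and 747 in treated mice. Cxcl10 stood apart from the others in its values, and its WT mice alone would not have carried it past the low-count filter. Untreated WT mice 1 to 4 held 0.442, 0.222, 0.112 and 0.480 CPM, and untreated G93A mice 9 to 12 held 0.50, 1.5, 0.559 and 0.585 CPM. The groups did not overlap, by a margin of 0.480 against 0.50 CPM, in a comparison where 1.21% of all genes were higher in G93A without overlap. Among treated mice, WT mice 5 to 8 held 0.180, 0.225, 0.168 and 0.233 CPM, and treated G93A mice 13 to 16 held 0.465, 1.14, 0.628 and 1.45 CPM. They did not overlap either, where the share of all genes was 1.56%. The log2 fold change of Cxcl10 was 1.29 ± 0.49 (SE, unadjusted p = 0.0160, adjusted p = 0.822) in untreated and 2.18 ± 0.51 (unadjusted p = 0.000483, adjusted p = 1.0) in treated mice.

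With treatments averaged, 8 G93A against 8 WT mice at 90 days, Cxcl10 was higher by 1.73 ± 0.35 (SE, log2) at an adjusted p of 0.109, and 0 members were called, where 0.0265% of all genes were. At an unadjusted p under 0.05 there were 2 members, where 1250 of all 18899 genes passed, and DESeq2 called 1 member. Over the 24 alternatives the adjusted p of this value lay between 0.00197 and 0.312, and 5 of them called it: DESeq2 (0.00421), edgeR's likelihood ratio test (0.00197), no filter on low counts (0.00493), 1 surrogate variable (0.0459) and the fit without G93A untreated mouse 12 (0.0474). G93A untreated mouse 10, the highest in Cxcl10, was also the mouse with the raised Schwann cell markers. Without it the averaged value was 1.49 ± 0.33 (adjusted p = 0.233) and the untreated one 0.79 ± 0.47 (adjusted p = 1.0). Without WT untreated mouse 3, the other mouse with raised Schwann cell markers, the averaged value was 1.59 ± 0.35 (adjusted p = 0.199). Cxcl16 was higher by 0.69 ± 0.20 in the averaged comparison (adjusted p = 0.363), with 2.86 to 6.80 CPM in untreated G93A mice against 2.67 to 4.10 CPM in untreated WT mice, which overlapped. In treated mice of 90 days it did not overlap (2.87 to 5.94 CPM in G93A, 2.07 to 2.84 CPM in WT). Cxcl12, Cxcl14 and Cxcr4 overlapped between the genotypes at this age in both treatments. In untreated mice Cxcl12 was lower in G93A mice, with a log2 fold change of -0.42 ± 0.18 (SE, quasi-likelihood test, unadjusted p = 0.0313, adjusted p = 0.822). Cxcl9 held at most 3 counts, Cxcl13 at most 2 and Cxcr6 at most 3 in any mouse of 90 days, so their genotype difference was not detectable at this depth.

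The genotype difference of several members was larger at 155 than at 90 days by a test of the difference itself in 1 fit of all 32 mice. Cxcl9 and Cxcl10 passed the low-count filter of this fit only through their G93A mice, so the counts below are partly fixed by the filter. In untreated mice 3 of 6 tested members passed, where 12.9% of all genes did in this direction: Cxcl10 by 3.81 ± 0.77 (SE, log2, adjusted p = 0.000517), Cxcl16 by 3.21 ± 0.36 (adjusted p = 6.84e-08) and Cxcr4 by 2.09 ± 0.50 (adjusted p = 0.00268). In treated mice 4 of 6 passed, where the share of all genes was 13%: Cxcl10 by 3.23 ± 0.87 (adjusted p = 0.00745), Cxcl16 by 2.94 ± 0.36 (adjusted p = 3.57e-07), Cxcr4 by 2.65 ± 0.51 (adjusted p = 0.000260) and Cxcl14 by 0.72 ± 0.19 (adjusted p = 0.00652). For Cxcl14 in untreated mice the difference was 0.44 ± 0.19 (adjusted p = 0.10), and it was called without WT untreated mouse 2 of 155 days (0.57, adjusted p = 0.0304) or without G93A untreated mouse 12 of 155 days (0.53, adjusted p = 0.0341). For Cxcl9 it was 2.17 ± 1.44 (adjusted p = 0.303) and for Cxcl12 0.44 ± 0.27 (adjusted p = 0.254) in untreated mice. Under treatment it was 3.25 ± 1.97 (adjusted p = 0.252) for Cxcl9 and 0.31 ± 0.27 (adjusted p = 0.441) for Cxcl12.

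Between the ages within 1 genotype, all 6 tested members were higher at 155 than at 90 days in untreated G93A mice, where 21% of all genes were called higher. Cxcl9 passed the filter of this fit only through the G93A mice of 155 days. Cxcl10 rose by 2.96 ± 0.42 (SE, log2), Cxcl16 by 2.79 ± 0.24, Cxcl9 by 2.54 ± 0.85, Cxcr4 by 2.09 ± 0.34, Cxcl14 by 0.74 ± 0.14 and Cxcl12 by 0.55 ± 0.19. The calls of Cxcl9 (adjusted p = 0.0204) and Cxcl12 (adjusted p = 0.0251) were the weakest. That of Cxcl9 was lost with no filter on low counts (0.0525), with 1 surrogate variable (0.125) and with a replicate block on sample numbers (0.0962). It was also lost without mouse 10 of 90 days (0.0547) or of 155 days (0.138). That of Cxcl12 was lost when only the compared groups were fitted (0.0504), with 1 surrogate variable (0.111), with the caudal Hox score (0.0920), and without mouse 10 (0.0955) or 11 (0.106) of 90 days or mouse 9 (0.0658) or 10 (0.125) of 155 days. In untreated WT mice 0 of the 6 members were called between the ages, where 24.9% of all genes were, and DESeq2 called 0. At an unadjusted p under 0.05 there was 1 member, where 7338 of all 19829 genes passed. That member was Cxcl14 at 0.31 ± 0.14 (adjusted p = 0.0962), which was called without WT untreated mouse 2 of 90 days (0.47, adjusted p = 0.00766). All 5 Schwann cell markers were lower at 155 than at 90 days in untreated WT mice (median -4.87) and 1 of 5 was in untreated G93A mice (median -2.53). At 90 days these markers summed to 1683 CPM in WT mouse 3 against 101 to 113 CPM in WT mice 1, 2 and 4. In G93A mice they summed to 396 CPM in mouse 10 against 101 to 122 CPM in mice 9, 11 and 12. Single mice thus carry these medians, and the part of the markers in the member values was not tested. Mice of the 2 ages may also differ in cohort, which cannot be told apart from age here.

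OKN-007 changed none of the members at the threshold. In G93A mice 0 of 5 tested members were called at 90 days and 0 of 6 at 155 days, and the counts in WT mice were likewise 0 of 5 and 0 of 6, where 0% of all genes were called in each of the 4 comparisons. DESeq2 also called 0 members in all 4. At 90 days 1050 (G93A) and 769 (WT) of all 18899 genes passed an unadjusted p of 0.05. At 155 days 755 (G93A) and 549 (WT) of 18675 did. Among the members 1 passed it, Cxcr4 in WT mice of 155 days. There it was 1.12, 2.08, 1.61 and 0.853 CPM in untreated mice 1 to 4 and 1.13, 1.01, 0.523 and 0.495 CPM in treated mice 5 to 8, with overlap, a log2 difference of -0.84 ± 0.37 (SE, unadjusted p = 0.0355, adjusted p = 1.0). In G93A mice of 155 days the treated minus untreated difference was -0.17 ± 0.34 for Cxcl10, 0.095 ± 0.16 for Cxcl16, 0.17 ± 0.28 for Cxcr4, 0.00057 ± 0.12 for Cxcl14, -0.0094 ± 0.18 for Cxcl12 and -0.48 ± 0.72 for Cxcl9 on the log2 scale. The genotype by treatment interaction called 0 members at either age by edgeR and by DESeq2 (0% of all genes by edgeR at both ages). At an unadjusted p under 0.05 there were 0 members at 90 days and 1 at 155 days, Cxcr4 with 1.01 ± 0.47 (unadjusted p = 0.0438, adjusted p = 1.0). For this interaction 531 of all 18899 genes passed that limit at 90 days and 437 of 18675 at 155 days. The difference of the OKN-007 effect in G93A mice between the ages called 0 of 6 members, where 0% of all genes were called. At an unadjusted p under 0.05 there were 0 members, where 466 of all 19829 genes passed, and DESeq2 called 0 members.

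The other genes of the pathway at 155 days are given next, as untreated G93A against untreated WT mice, from lists chosen with earlier results of these data known. Of all 18675 genes tested in this comparison, 7378 were called in either direction, 3981 of them (21.3% of those tested) higher. Of 9 other CXC ligands 3 had enough counts to be tested, and 1 of them, the platelet and macrophage chemokine Pf4, was higher (1.39 ± 0.40, SE, log2, adjusted p = 0.0100). Cxcl2, singled out after its values were seen, was below the filter with 0 counts in all 8 WT mice of 155 days and 3 to 10 counts in each of the 8 G93A mice. Of 8 other CXC and atypical receptors 2 were tested. Ackr3, the scavenging receptor of Cxcl12, was higher by 0.98 ± 0.18 (adjusted p = 0.000361), from 5.77 ± 1.85 to 11.2 ± 1.33 CPM (mean ± SD, n = 4). Ackr1, a decoy receptor of vessels and erythrocytes, fell by 0.42 ± 0.11 (adjusted p = 0.00514), from 22.8 ± 3.06 to 16.9 ± 2.47 CPM. Cxcr3, the receptor of Cxcl9 and Cxcl10, held 1 to 2 counts in untreated WT and 1 to 5 counts in untreated G93A mice, and Cxcr5, the receptor of Cxcl13, held 0 to 5 and 0 to 9 counts. Neither receptor reached the low-count filter.

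Of 8 enzymes that release or trim CXC chemokines 7 were tested, 4 were higher and 1 was lower. The higher ones were the cathepsin Ctsb (1.75 ± 0.14, SE, log2), the matrix metalloprotease Mmp2 (1.14 ± 0.14) and both sheddases of Cxcl16, Adam17 (0.76 ± 0.090) and Adam10 (0.28 ± 0.094, adjusted p = 0.0233, with overlapping groups). Mmp9 fell by 1.61 ± 0.14 (adjusted p = 3.01e-08), from 8.87 ± 0.751 to 2.87 ± 0.249 CPM. Of 18 genes of receptor signalling 9 were higher and 6 lower, where 7378 of all 18675 genes were called in either direction. Rgs1, which shortens G protein signals and is strong in leukocytes, was higher by 5.86 ± 0.40, and the haematopoietic genes Rac2 (2.76 ± 0.24), Dock2 (2.72 ± 0.15) and Plcb2 (2.10 ± 0.20) followed. The G protein subunit genes Gnai1 (-0.68 ± 0.12) and Gng2 (-0.46 ± 0.069) were the lowest. Of 24 genes of interferon and NF-kB input 22 were tested, 18 were higher and 1 was lower, with a median log2 fold change of 0.93 against 0.00015 over all genes. Among them were Tnf (3.66 ± 0.59), Irf8 (3.26 ± 0.20), Irf7 (2.28 ± 0.22), Tnfrsf1a (2.12 ± 0.13) and, in the other direction, Jak1 (-0.35 ± 0.087). Ifng, the interferon that gave Cxcl9 and Cxcl10 their older names and also singled out after its values were seen, had 0 counts in all 8 G93A mice of 155 days, which allows up to 3 counts per library. In treated WT mice of that age every gene of this list with a row, Ifng among them, had a count in some mouse. No genotype difference of Ifng is drawn from these counts. In treated mice the same lists gave 1 higher and 0 lower of 3 ligands, 1 and 1 of 2 receptors, 4 and 1 of 7 enzymes, 9 and 6 of 18 signalling genes and 19 and 1 of 22 interferon and NF-kB genes. There 7747 of all 18675 genes were called in either direction, 4346 of them (23.3% of those tested) higher.

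**Figure D3:**
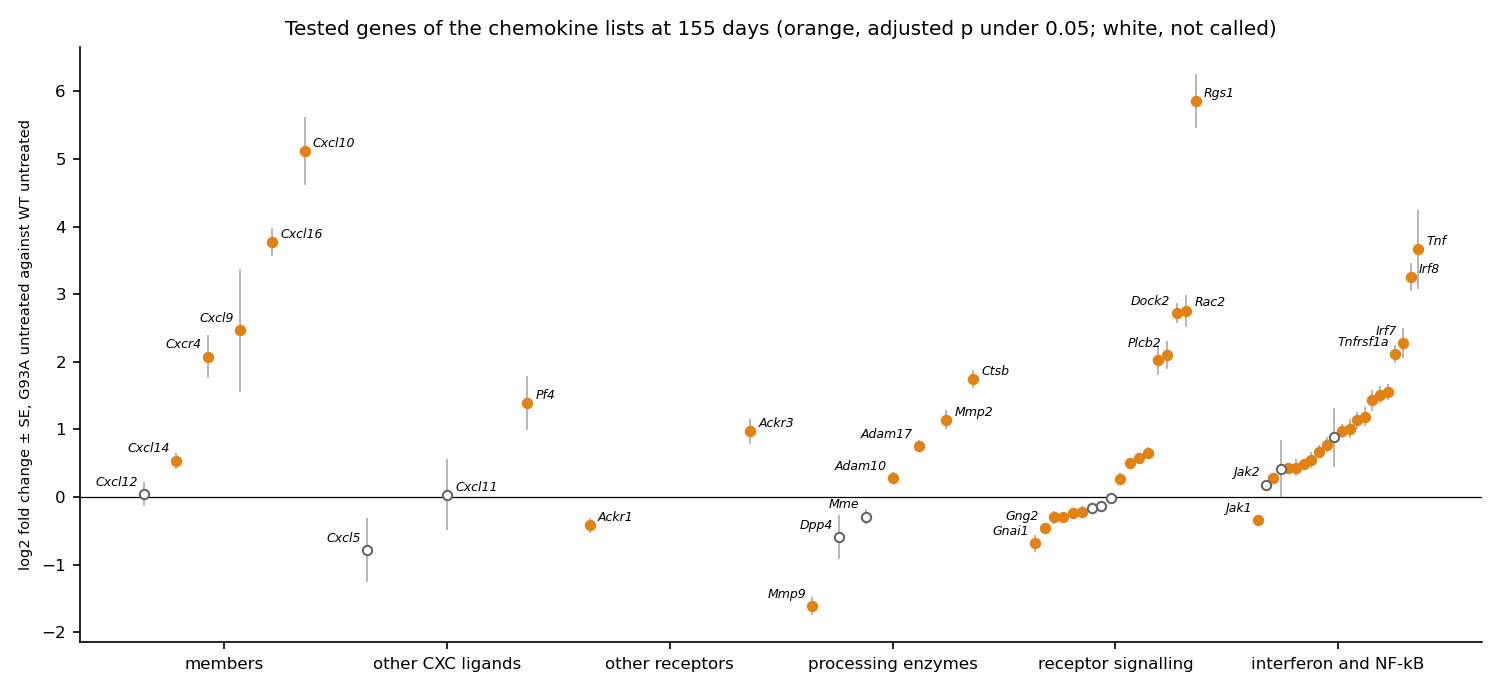
Log2 fold change with its standard error (vertical axis) of untreated G93A against untreated WT mice at 155 days for each tested gene of the members and of 5 pathway lists (horizontal axis), orange where the adjusted p was under 0.05. Rgs1, Cxcl10, Cxcl16 and Tnf are the highest points, and Mmp9 at -1.61 is the lowest.

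Markers of several cell types moved with the genotype at 155 days, and their part in the values of the members was not tested. In untreated mice 7378 of all 18675 genes were called in either direction, 3981 of them (21.3% of those tested) higher. An unadjusted p under 0.05 was reached by 8823 genes. All 9 microglia markers were higher in untreated G93A mice (median log2 fold change 1.89), and their summed level was 325 to 390 CPM in untreated WT and 1195 to 1952 CPM in untreated G93A mice, with 0 markers at 0 counts. The sum was 304 to 357 CPM in treated WT and 1424 to 1698 CPM in treated G93A mice. Of 8 astrocyte markers 6 were higher, with sums of 5694 to 6388 CPM in untreated WT and 14701 to 18215 CPM in untreated G93A mice. Of 10 neuron markers 9 were lower, with sums of 3402 to 3979 and 2064 to 2829 CPM. Counted as higher and lower, the other glial and stromal lists gave 4 and 0 of 4 oligodendrocyte precursor, 1 and 0 of 6 oligodendrocyte, 3 and 1 of 5 pericyte, 2 and 0 of 6 meningeal fibroblast and 1 and 0 of 5 Schwann cell markers. Of 10 T cell markers 5 were tested and 3 were higher (Cd8a, Cd3g and Cd5), and the 10 summed to 2.16 to 3.82 CPM in untreated WT and 4.70 to 6.12 CPM in untreated G93A mice. Of 6 B cell markers 2 were tested, Ighm was lower and 0 were higher, and the sum was 23.4 to 32.7 CPM in untreated WT and 17.4 to 21.9 CPM in untreated G93A mice, where Cxcl13 was higher. Of the 7 endothelial markers 0 were called in the untreated comparison (2 at an unadjusted p under 0.05), of the 6 NK cell markers 0 were tested, and of the 2 dendritic cell markers tested both were lower. Of the 6 monocyte and neutrophil markers 2 were tested and 0 called (1 at an unadjusted p under 0.05), and of the 5 border macrophage markers 4 were tested and 1 was higher. At 90 days, with treatments averaged, none of the genes of these pathway and marker lists was called.

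Over all 32 mice, the genes most like each of the 6 members that passed the filter were named by Pearson's r of log2 CPM among 19828 other genes. Cxcl13 and Cxcr6 were too low to be included. These values describe mice that share the genotype and age split, so they carry no test. Cxcl16 was most like Lyz2 (r = 0.989), Cd68 (0.988) and Tyrobp (0.988), which are genes of macrophages and microglia. Cxcl10 was most like Tubb6 (0.954), Aif1 (0.951) and Bcl2a1a (0.951). Cxcr4 was most like the cytokine receptor gene Il10rb (0.960), Ccdc190 (0.948) and the cytokine receptor gene Il21r (0.941). Cxcl14 was most like Acsbg1 (0.956), Slc3a2 (0.950) and Anapc15 (0.942), and Cxcl12 most like Fzd6 (0.842), Ets1 (0.838) and Zfp608 (0.818). Cxcl9 had the loosest matches, with Ifi44 (0.799), H2-T23 (0.795) and Tap1 (0.792), of which the first is interferon-induced and the others serve antigen presentation.

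Within the 8 G93A mice of 155 days, where the members are highest, 15 pairs of members were compared by log2(CPM + 0.5), and 0 passed an exact two-sided permutation test of Pearson's r or of Spearman's rho after adjustment over the 15 pairs, with 5 at an unadjusted p under 0.05 for Pearson's r. Cxcl14 and Cxcl16 had Pearson's r = 0.837 (exact permutation p = 0.00709, adjusted p = 0.0802) and Spearman's rho = 0.857 (exact permutation p = 0.0107, adjusted p = 0.144), and r was 0.819 without the 2 mice farthest from the median of Cxcl14. These mice pool both treatments, and as deviations from the mean of each treatment group the same pair had r = 0.850 (permutation p = 0.00652, adjusted p = 0.0639) and rho = 0.929 (permutation p = 0.00223, adjusted p = 0.0335). This permutation moved deviations between the treatment groups, although each was taken from the mean of its own group. Its p-values are therefore not exact, and no call is drawn from them. Cxcl9 and Cxcl10 had r = 0.837 (exact permutation p = 0.0107, adjusted p = 0.0802) and rho = 0.690 (exact permutation p = 0.0694, adjusted p = 0.149). Its r was 0.464 without the 2 mice farthest from the median of Cxcl9, which also narrows the range of Cxcl9. With single mice left out, r was lowest, at 0.674, without untreated G93A mouse 10. Without untreated G93A mouse 12, the mouse with the highest liver gene sum, 1 pair passed by Pearson's r, Cxcl9 and Cxcl10 (r = 0.961 over 7 mice). The r of Cxcl12 with the other members ranged from -0.235 to 0.0294. Without the 2 mice farthest from the median of the gene on the x axis (Cxcl9 and Cxcl10 in their own pairs, Cxcl12 in the others), r was -0.658 with Cxcl9, -0.524 with Cxcl10, 0.635 with Cxcl14, 0.405 with Cxcl16 and 0.247 with Cxcr4, and without untreated G93A mouse 10 alone r with Cxcl9 was -0.651.

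**Figure D4:**
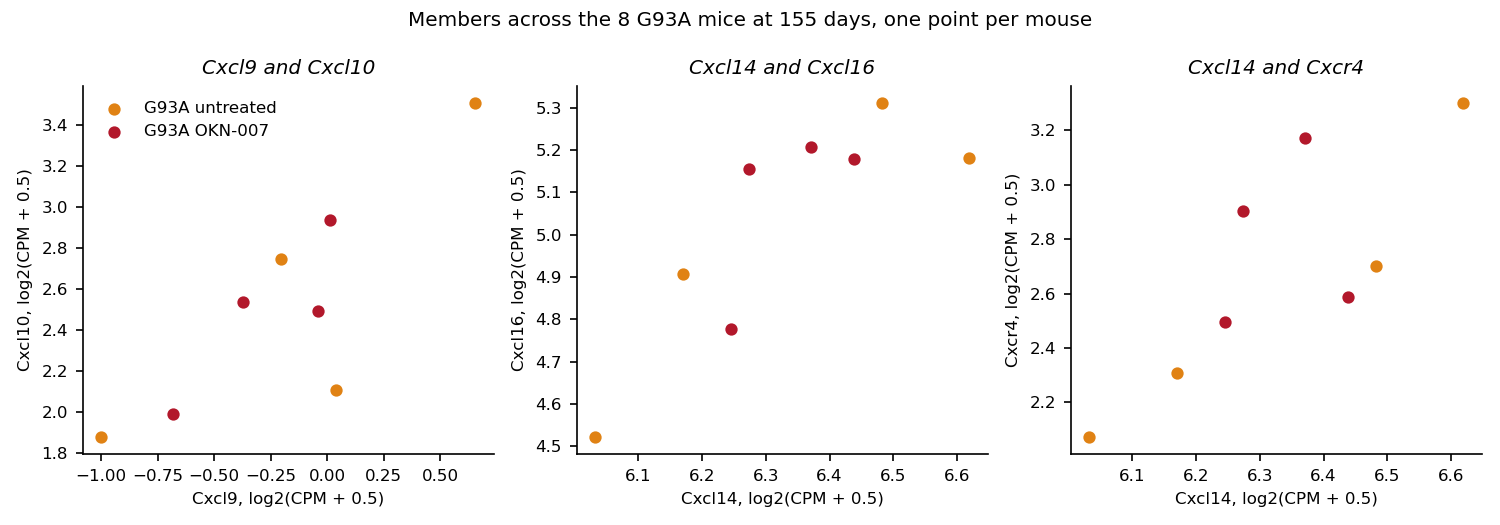
Levels of 3 pairs of members as log2(CPM + 0.5) on both axes in the 8 G93A mice at 155 days, 1 point per mouse, coloured by treatment. Cxcl9 and Cxcl10 and Cxcl14 and Cxcl16 both have r = 0.837, and Cxcl14 and Cxcr4 have r = 0.797, with untreated and treated mice intermixed.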

How the data were processed

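RNA from 25 mg of spinal cord per mouse was made into stranded mRNA libraries, and the authors deposited a table of raw counts per Ensembl gene, without normalization, for 32 samples. The submitters' processing notes name STAR, featureCounts, GRCm39 and hg38, whereas the study's methods name another counter and an older mouse build. The file held 1306 identifiers newer than every one of GENCODE M21, so the counter and build of these values are not settled and no coordinates are given from the count table. The promoter windows carry the RefSeq coordinates of GRCm38.p6 and were matched by gene symbol. The human transgene has no row of its own in the mouse table.

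Identifiers were matched to symbols with GENCODE M21 (41203 of 42524). Genes were tested with edgeR 4.0.16 (R 4.3.3): filterByExpr, TMM factors and the quasi-likelihood test, 4 groups per age or all 32 mice between ages, two-sided, with Benjamini-Hochberg adjustment over all genes tested. Fold changes and their standard errors come from this fit. CPM come from library sizes over the genes past the filter in all 32 mice, scaled by TMM factors. DESeq2 1.42.0 and sva 3.50.0 served as alternatives. The test was checked on simulated data. The members and lists were chosen with earlier results of these data known. Named genes were the members, up to 4 called genes per direction with the largest changes in each pathway list, receptors, ligands or sheddases that pair with a member, defining markers, and the 3 genes most alike each member that passed the filter. None of the 48 pairs of libraries within a group was identical, and pairs across groups were not compared. The labels give 4 replicates per group without naming their litter or cohort, so p-values measure the spread between these samples. Floors cover counting error only, whereas the standard errors of the fit also cover the spread between mice.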

Additional observations from a re-analysis of the deposited data

Results flagged for a closer look

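Among the 48 groups of 4 mice in which a member was high enough to be examined, 6 held a highest or lowest mouse set apart from its neighbour by more than Dixon's limit allows, and chance gives about 1 in 20 groups, or 2.4 here. Cxcl9 was 0.304 CPM in WT untreated mouse 2 of 155 days, where the next mouse held 0.0382 CPM. Cxcl10 was 1.5 CPM in G93A untreated mouse 10 of 90 days, against 0.585 CPM in the next. Cxcl12 was 51.7 CPM in WT OKN-007 mouse 6 of 155 days, against 33.4 CPM. In WT untreated mouse 2 of 90 days Cxcl14 was high at 59.9 CPM, against 42.6 CPM in the next, and Cxcr4 was low at 0.519 CPM, against 1.68 CPM. Cxcl16 was low at 26.9 CPM in G93A OKN-007 mouse 16 of 155 days, where the next mouse held 35.2 CPM.

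The difference between G93A and WT mice was larger at 155 than at 90 days by an interaction test for 3 members in untreated mice, by 3.81 for Cxcl10, 3.21 for Cxcl16 and 2.09 for Cxcr4 on the log2 scale. In treated mice this held for 4 members, by 3.23 for Cxcl10, 2.94 for Cxcl16, 2.65 for Cxcr4 and 0.72 for Cxcl14. Of all genes, 12.9% passed in this direction in untreated and 13% in treated mice. Cxcl10 is among the tested members of this fit only through its G93A mice, so these counts are partly fixed by the filter.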

How the results depend on the processing

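Of 2837 recomputed values of single members, 2801 kept their side of the threshold, 24 lost the call (17 of Cxcl9 and 7 of Cxcl12) and 12 gained one. Among them 0 called values changed sign, and 108 values that were not called did. Of 511 recomputed counts 8 moved by over 1.5 times. The count of members called at 90 days with treatments averaged was 0, and it became 1 with DESeq2, 1 with the likelihood ratio test, 2 with no filter on low counts (Cxcl10 and Cxcl16), 1 with 1 surrogate variable and 0 to 1 when single mice were left out (1 without G93A untreated mouse 12). Between the ages in untreated WT mice the count of 0 became 1 with the replicate block (Cxcl14, 0.31, adjusted p = 0.0465) and 0 to 1 when single mice were left out (1 without WT untreated mouse 2 of 90 days). The replicate block ended the call of Cxcl9 between the ages in untreated G93A mice (2.18 ± 0.98, adjusted p = 0.0962). The count of pairs correlated by Pearson's r, 0, became 0 to 1 when single mice were left out (1 without G93A untreated mouse 12 of 155 days). By Spearman's rho 1 pair, Cxcl14 and Cxcl16, was under the threshold on deviations from the treatment group means (permutation test, adjusted p = 0.0335). That permutation is not exact for such deviations, so no call is drawn from it. The cause of these changes was not tested. Sample numbers did not pair the mice, since 2 of 16 same-numbered pairs correlated over 0.1, with a range of -0.215 to 0.134. Over all genes, the 0 called at 90 days in untreated mice became 16 with DESeq2 and 39 with no filter, the 0 in treated mice 3 and 24, and the 5 in the averaged comparison 66 and 110. In the averaged comparison at 155 days the 10211 called genes became 6737 with the Hox covariate. Depth limits Cxcl9, Cxcl13 and Cxcr6 most. For Cxcl13 only ratios to a floor are given, and for Cxcr6 only fold changes of the fit with no filter on low counts.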
